A study of Arabidopsis thaliana with 8 samples.

Results

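Magnesium chelatase inserts the magnesium ion into protoporphyrin IX and so commits this porphyrin to chlorophyll. The genes described here are the 5 Arabidopsis thaliana loci that encode its subunits and its activator GUN4, chosen by locus identifier: CHLH (AT5G13630), CHLI1 (AT4G18480), CHLI2 (AT5G45930), CHLD (AT1G08520) and GUN4 (AT3G59400). They are 5 of the 27415 genes in the deposited tables, and all 5 passed the filter on low counts. Seedlings of the Col-0 accession, with no transgene or mutation named, were grown in darkness for 4 days. They were collected after 4 h of white light or without light, both times as whole seedlings frozen in liquid nitrogen as far as the labels say. Both steady-state mRNA and the mRNA protected by ribosomes were sequenced from each condition, which gave 4 groups (ribosome-protected mRNA after light and in the dark, and mRNA after light and in the dark) of 2 libraries each, repeats 1 and 2. Ribosome-protected mRNA is what is left under the ribosomes once RNase I has removed the bare stretches between them.

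In plants the enzyme is built from the small ATPase subunit CHLI, the middle subunit CHLD, which forms a ring complex with CHLI, and the large subunit CHLH, which binds the porphyrin. GUN4 binds the porphyrin substrate and product and stimulates the enzyme. Dark-grown seedlings stop chlorophyll synthesis at protochlorophyllide, whose reduction needs light, and synthesis restarts when light arrives. Ferrochelatase draws on the same protoporphyrin for haem, and loss of GUN4 or CHLH disturbs plastid-to-nucleus signalling.

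In the TAIR10.1 reference, CHLH lies on the minus strand of chromosome 5 at chr5:4387307-4392429 with 5 exons and a coding sequence (CDS) of 4146 bases. CHLI1 lies on the minus strand at chr4:10201672-10203469 with 3 exons and 1275 coding bases. CHLI2 lies on the plus strand at chr5:18627950-18629697, also with 3 exons, and has 1257 coding bases. CHLD lies on the plus strand at chr1:2696381-2701022 with 15 exons and 2283 coding bases. GUN4 is a gene of 1 exon on the minus strand at chr3:21948501-21949796 with 798 coding bases. The values below come from reads in coding sequence, except where untranslated regions are named.

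CHLI1 and CHLI2 are copies of one another, so the division of reads between them needed a check. Their coding sequences were identical at 81.8% of the aligned bases, with 229 substitutions, and the longest identical run was 44 bases. Of all 28-base words, about the length of a ribosome footprint, 18 of 1248 in CHLI1 (1.44%) also occurred in CHLI2, and CHLI1 held 18 of the 1230 in CHLI2 (1.46%). CHLH and GUN4 had 0 such words elsewhere in the genome, and CHLD had 6 of 2256. The 120-base stretch in which both CHLI copies were most alike is shown to let the remaining differences be seen, with the bases that differ in capitals. It covers bases 641 to 760 of the CHLI1 coding sequence and 623 to 742 of that of CHLI2, and 9 bases differ.
CHLI1, most alike: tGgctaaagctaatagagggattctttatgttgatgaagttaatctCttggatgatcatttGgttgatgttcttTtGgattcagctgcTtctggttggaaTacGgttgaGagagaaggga
CHLI2, most alike: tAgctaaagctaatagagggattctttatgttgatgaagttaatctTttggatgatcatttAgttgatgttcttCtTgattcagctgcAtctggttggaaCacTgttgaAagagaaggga
In the least alike 120-base stretch, bases 955 to 1074 of CHLI1 and 937 to 1056 of CHLI2, 35 bases differ, again in capitals.
CHLI1, least alike: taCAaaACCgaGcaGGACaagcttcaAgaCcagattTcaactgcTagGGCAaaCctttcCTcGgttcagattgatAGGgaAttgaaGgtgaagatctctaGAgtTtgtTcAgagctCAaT
CHLI2, least alike: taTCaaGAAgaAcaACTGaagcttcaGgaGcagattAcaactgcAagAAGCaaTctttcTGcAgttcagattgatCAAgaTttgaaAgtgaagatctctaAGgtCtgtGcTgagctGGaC
Few words were therefore shared between the copies at this length, although the sources used here do not say how the authors placed reads that match both.

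GUN4 carries a limit of another kind. A first exon of 1 of the 5 annotated isoforms of AT3G59410, a gene on the opposite strand, covers all 798 of its coding bases, and whether counting used strand is not given. That exon holds 0 coding bases over GUN4. The coding sequence of AT3G59410, which lies outside GUN4, had 30.8 and 26.7 CPM in mRNA after light and 30.4 and 25.8 CPM in the dark, where CPM are reads relative to the scaled size of each library. In ribosome-protected mRNA it had 9.68 and 6.19 CPM after light and 16.9 and 8.50 CPM in the dark. The neighbour was thus nearly level in mRNA, and in ribosome-protected mRNA its value after light was below the dark value of the same repeat. Of the other members, CHLI2 shares 4 coding bases with exons of a neighbour and CHLH, CHLI1 and CHLD share 0.

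The mRNA libraries held 30997341 to 37245819 CDS reads. The ribosome-protected libraries held 4617343 and 40972194 after light, and 4843438 and 14974871 in the dark, repeat 1 first. The etiolation marker PORA and the light marker LHCB1.1 followed the labels in every library: LHCB1.1 had 590 and 937 CPM in mRNA after light and 3.29 and 6.78 CPM in the dark, and PORA had 4.31 and 8.39 CPM after light and 83.3 and 563 CPM in the dark. All 3 root markers had reads in every library. The root marker PIN2 had 5.45 and 5.22 CPM in mRNA after light and 18.6 and 21.7 CPM in the dark, and fell in mRNA (log2 -1.92 ± 0.32, edgeR adjusted p = 0.0262) and in ribosome-protected mRNA (-2.22 ± 0.33, adjusted p = 0.0142). Summed without the abundant PYK10, the root markers PIN2 and CASP1 had 140 and 142 CPM in mRNA after light and 191 and 211 CPM in the dark, and 336 and 296 against 526 and 552 CPM in ribosome-protected mRNA. PYK10 itself had 5266 and 14430 CPM after light and 2937 and 8422 CPM in the dark in mRNA. In ribosome-protected mRNA PYK10 had 6677 and 17808 CPM after light and 4145 and 11459 CPM in the dark. The sum of all 3 root markers was higher after light, at 5406 and 14572 against 3127 and 8633 CPM in mRNA. In ribosome-protected mRNA that sum was 7013 and 18104 against 4672 and 12010 CPM. By edgeR, CASP1 did not pass (adjusted p = 0.446 in mRNA and 0.156 in ribosome-protected mRNA), and neither did PYK10 (0.729 and 0.746). The 3 seed reserve markers summed to 1.41 to 30.3 CPM, with the higher values in repeat 1, and the pollen marker VGD1 had 0 reads. The part of these markers in the results below was not tested. In such bulk samples, fewer cells of a type and less RNA per cell cannot be told apart. Whether the repeats came from separate cultures is not stated, and the tests therefore weigh only the differences among these particular libraries, which may be technical. Same-numbered libraries deviated from their group means together. A test that pairs them by repeat number is given wherever it changes the call of a member or of a pathway gene given with its values.

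After light the 5 genes together took 0.253 and 0.339% of all CDS reads in mRNA, against 0.0276 and 0.0602% in the dark. In ribosome-protected mRNA they took 0.363 and 0.541% after light and 0.0228 and 0.0440% in the dark. CHLH alone made up 66.0 and 60.5% of the members' mRNA reads after light and 41.1 and 41.6% in the dark, and 70.7 and 74.7% of their ribosome-protected reads after light against 38.2 and 35.1% in the dark. In both kinds of library and both repeats, CHLH took the larger share after light.

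**Figure D1:**
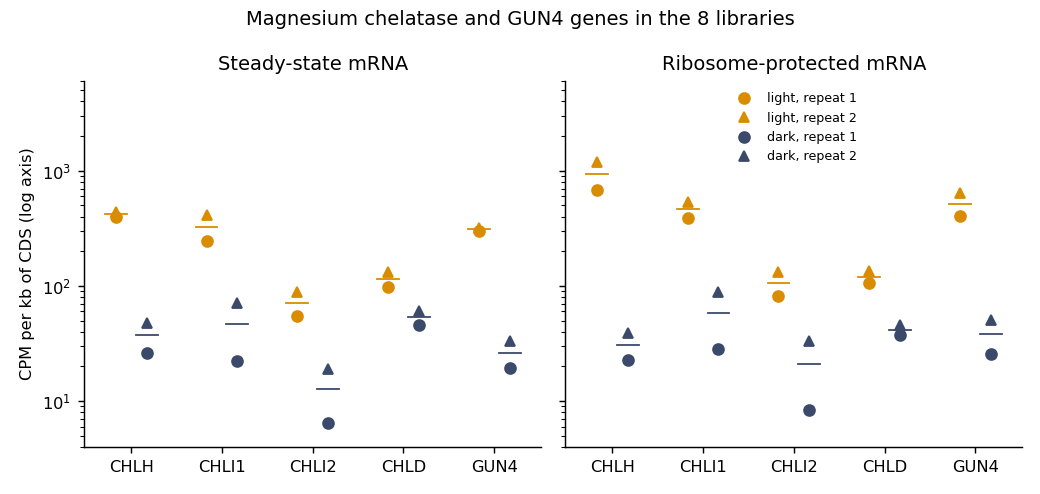
Level of each gene in the 8 libraries, as CPM per kb of coding sequence (logarithmic axis), with light libraries in orange and dark libraries in blue, circles for repeat 1, triangles for repeat 2 and bars for the group mean. In mRNA the light values of CHLH are 396 and 439 and its dark values 26.4 and 47.9, while CHLD has 98.5 and 133 after light and 45.9 and 60.6 in the dark.

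Steady-state mRNA was higher after light for CHLH, 11.2-fold, and GUN4, 11.8-fold, while CHLI1, CHLI2 and CHLD had positive changes that missed the threshold. By the quasi-likelihood test of edgeR, with Benjamini-Hochberg adjusted p over 19823 genes and a threshold of 0.05, 2 of the 5 members rose and 0 fell, where 3.34% of all genes rose and 1.44% fell. All 5 had an unadjusted p under 0.05, as did 19.0% of all genes, and the median log2 change of the members was 2.81, against 0.01 over all genes tested.

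CHLH, the porphyrin-binding subunit, had 1641 and 1821 CPM in mRNA after light and 109 and 199 CPM in the dark. Both light libraries lay above both dark ones, and repeat 2 was the higher in each condition. An exact permutation test of 2 against 2 libraries cannot give a p under 0.333, so separate groups are only described, here and below. How many of all genes had separate groups was not counted. The log2 change was 3.49 ± 0.54 (SE, n = 2 libraries per group; edgeR adjusted p = 0.0211), an 11.2-fold difference, and within the repeats it was 3.91 and 3.20.

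GUN4, the activator, had 239 and 256 CPM in mRNA after light and 15.5 and 26.6 CPM in the dark. The groups did not overlap, and on the log2 scale repeat 2 exceeded repeat 1 by 0.10 after light and by 0.78 in the dark. The log2 change was 3.56 ± 0.49 (edgeR adjusted p = 0.0154), an 11.8-fold difference, with 3.95 and 3.27 within the repeats.

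CHLI1, the main ATPase subunit gene, had 311 and 521 CPM in mRNA after light and 28.4 and 89.9 CPM in the dark. CHLI2, its copy, had 68.4 and 111 CPM after light and 8.13 and 23.6 CPM in the dark. For both genes the light libraries were above the dark ones. On the log2 scale, repeat 2 exceeded repeat 1 in the dark by 1.66 for CHLI1 and 1.53 for CHLI2, against 0.74 and 0.69 after light. The change was 2.81 ± 0.76 for CHLI1 (edgeR adjusted p = 0.0998) and 2.49 ± 0.78 for CHLI2 (adjusted p = 0.143), so neither passed.

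CHLD, the middle subunit, had 225 and 304 CPM in mRNA after light and 105 and 138 CPM in the dark. The groups were separate, and the change was the smallest of the 5 at a log2 of 1.12 ± 0.31 (2.17-fold; edgeR adjusted p = 0.103). It was nearly the same in both repeats and did not pass.

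With the libraries paired by repeat number, all 5 members passed in mRNA, with edgeR adjusted p of 3.52e-04 for CHLI1, 4.61e-04 for CHLI2 and 9.12e-04 for CHLD, but 19.4% of all genes then rose. Leaving out any 1 of the 4 mRNA libraries, or fitting those 4 alone, left 0 members called, with CHLH between 3.05 and 3.97 and GUN4 between 3.15 and 3.98 when 1 library was left out. CHLI1 then lay between 2.13 and 3.85 and CHLI2 between 1.84 and 3.44.

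**Figure D2:**
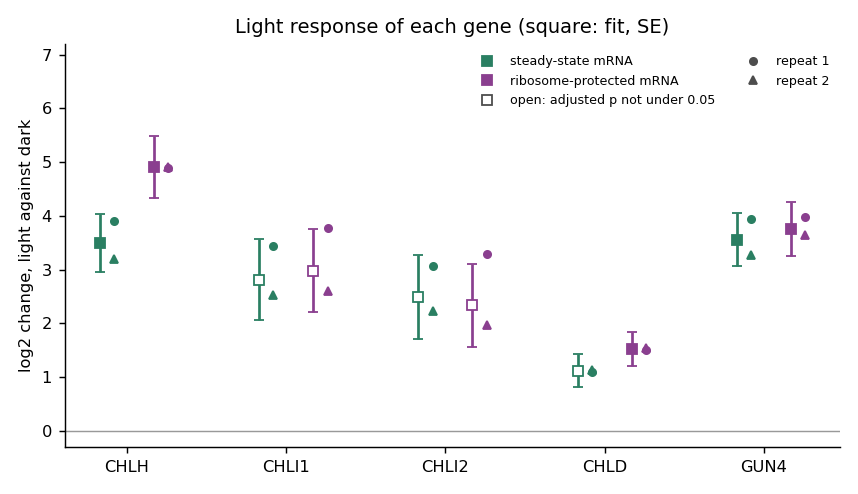
Log2 change of each gene, light against dark, in steady-state mRNA (green) and in ribosome-protected mRNA (purple), as the fitted value with its standard error (squares, filled where the edgeR adjusted p is under 0.05) and the value within repeat 1 (circles) and repeat 2 (triangles). CHLH has 3.49 in mRNA and 4.91 in ribosome-protected mRNA, CHLD has 1.12 and 1.52, and the repeats stand furthest apart for CHLI1 and CHLI2.

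Ribosome-protected reads rose after light for CHLH, 30.0-fold, GUN4, 13.6-fold, and CHLD, 2.87-fold, in the same edgeR test. That is 3 of 5 members up and 0 down, where 4.71% of all genes rose and 2.12% fell, and the median log2 change was 2.98 for the members and -0.03 over all genes tested.

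CHLH had 2802 and 4903 CPM of ribosome-protected reads after light and 94.0 and 163 CPM in the dark. The higher dark library stood far below the lower light one. The log2 change of 4.91 ± 0.58 (SE, n = 2 libraries per group; edgeR adjusted p = 0.00755) was nearly the same in both repeats, at 4.90 and 4.91. By size it ranked 156 among all genes tested, whereas its mRNA change ranked 270.

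GUN4 had 321 and 506 CPM of ribosome-protected reads after light and 20.3 and 40.5 CPM in the dark. The groups were separate and repeat 2 was higher in both, with a log2 change of 3.76 ± 0.50 (edgeR adjusted p = 0.0105).

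CHLD had 243 and 306 CPM of ribosome-protected reads after light and 85.5 and 105 CPM in the dark, again without overlap. Its log2 change was 1.52 ± 0.31 (edgeR adjusted p = 0.0369), with 1.50 and 1.54 within the repeats.

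CHLI1 had 494 and 683 CPM of ribosome-protected reads after light and 36.1 and 112 CPM in the dark. For CHLI2 the values were 103 and 166 CPM after light and 10.5 and 42.1 CPM in the dark, those in the dark resting on 47 and 599 reads. In the dark, repeat 2 exceeded repeat 1 by 1.64 on the log2 scale for CHLI1 and by 2.00 for CHLI2. The changes of 2.98 ± 0.76 (edgeR adjusted p = 0.0710) and 2.34 ± 0.77 (adjusted p = 0.141) did not pass.

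With pairing by repeat, CHLI1 (edgeR adjusted p = 2.73e-04) and CHLI2 (6.94e-04) passed as well, where 17.3% of all genes rose. Without either dark ribosome-protected library 0 members were called, without repeat 2 of the light ones 1 was called (CHLH), and the call of CHLD was lost without any 1 of the 8 libraries, its log2 change then lying between 1.34 and 1.68. CHLI1 lay between 2.39 and 4.03 and CHLI2 between 1.68 and 3.69 with 1 library left out.

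The ratio of ribosome-protected to mRNA level shows how many footprints a transcript carried relative to the other transcripts of the same pair of libraries. For CHLH the ratio was 1.71 and 2.69 after light and 0.860 and 0.819 in the dark, without overlap. Among all genes tested this placed it at percentiles 90.1 and 98.1 after light and 43.0 and 36.0 in the dark. For CHLD it was 1.08 and 1.01 after light and 0.817 and 0.761 in the dark, also without overlap. How many of all genes had ratios without overlap was not counted.

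The other 3 members had ratios above 1 in both conditions. CHLI1 had 1.59 and 1.31 after light and 1.27 and 1.25 in the dark, also without overlap. CHLI2 had 1.51 and 1.50 after light, which fell between its dark values of 1.29 and 1.78. GUN4 had 1.34 and 1.98 after light and 1.31 and 1.52 in the dark, with overlap.

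**Figure D3:**
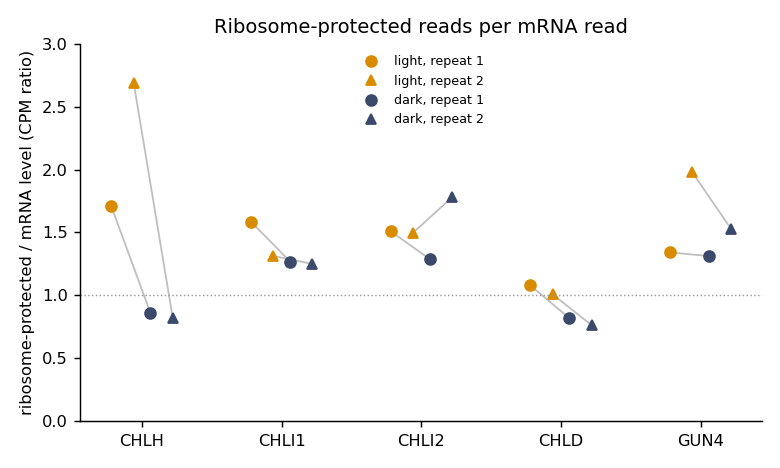
Ratio of ribosome-protected to steady-state mRNA level (CPM over CPM) of each gene after light (orange) and in the dark (blue), with a grey line joining the light and dark values of a repeat and circles and triangles for repeats 1 and 2. CHLH has the widest gap, 1.71 and 2.69 after light against 0.860 and 0.819 in the dark.

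The change in this ratio with light, tested as the interaction in the same edgeR fit, was called for 0 of the 5 members, and the share called over all genes was 0%. For CHLH the log2 interaction was 1.42 ± 0.69 (95% interval -0.25 to 3.08; unadjusted p = 0.0831, edgeR adjusted p = 1.00), with 0.99 and 1.72 within the repeats. With pairing by repeat its unadjusted p was 0.00348 and its adjusted p 0.365. The intervals were wide for the others too, with fitted values of 0.40 ± 0.43 for CHLD, 0.20 ± 0.63 for GUN4, 0.17 ± 1.00 for CHLI1 and -0.16 ± 1.04 for CHLI2. None of the 5 had an unadjusted edgeR p under 0.05, where 1.32% of all genes did (261 of 19823). DESeq2 called 15 of the 19823 genes, of which 0 were members.

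Within a condition, ribosome-protected and mRNA levels were set against each other relative to all genes. After light 0 members passed in edgeR, where 0.101% of all genes were called higher and 2.36% lower in ribosome-protected mRNA. In the dark 0 members passed as well, where 0.787% of all genes were called higher and 3.87% lower. At an unadjusted edgeR p under 0.05 there were 0 members in either condition, against 18.9% of all genes after light and 24.5% in the dark. DESeq2 called 0 members, against 1724 of the 19823 genes after light and 2696 of the 19823 in the dark, in either direction. With so few members, the absence of calls does not set them apart from all genes. CHLH had a log2 difference of 1.15 ± 0.49 after light (edgeR adjusted p = 0.276) and -0.26 ± 0.49 in the dark (adjusted p = 0.793). GUN4 had 0.74 ± 0.45 after light (adjusted p = 0.435) and 0.54 ± 0.45 in the dark. With pairing by repeat, CHLH (edgeR adjusted p = 0.0109) and GUN4 (0.0464) were higher in ribosome-protected mRNA after light, where 14.2% of all genes were. With a separate repeat term for each kind of library neither was called (adjusted p = 0.0570 for CHLH and 0.179 for GUN4).

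Per kb of coding sequence, so that genes can be set against each other, CHLH had the highest mRNA level after light, 418 ± 30.7 CPM per kb (SD, n = 2). CHLI1 followed with 326 ± 116, GUN4 with 310 ± 14.8, CHLD with 116 ± 24.4 and CHLI2 with 71.2 ± 23.8 CPM per kb. The ranges of CHLH, CHLI1 and GUN4 formed a chain, with that of CHLI1 (244 to 408) overlapping both neighbours, while CHLD and CHLI2 lay below them and apart from each other. In the dark the order in mRNA was CHLD (53.2 ± 10.4 CPM per kb), CHLI1 (46.4 ± 34.1), CHLH (37.2 ± 15.2), GUN4 (26.3 ± 9.84) and CHLI2 (12.6 ± 8.72). There the ranges of all neighbours overlapped except those of GUN4 and CHLI2, so CHLD cannot be placed above CHLI1.

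In ribosome-protected mRNA after light the order per kb was CHLH (929 ± 358 CPM per kb), GUN4 (518 ± 164), CHLI1 (462 ± 105), CHLD (120 ± 19.6) and CHLI2 (107 ± 35.1). The ranges of GUN4 and CHLI1 overlapped, as did those of CHLD and CHLI2. Within each light library, however, GUN4 was above CHLI1 and CHLD above CHLI2. In the dark all neighbours overlapped, with CHLI1 at 58.2 ± 42.3, CHLD at 41.8 ± 6.13, GUN4 at 38.1 ± 17.9, CHLH at 31.0 ± 11.7 and CHLI2 at 20.9 ± 17.8 CPM per kb. Within each dark library GUN4 was above CHLH and CHLH above CHLI2, while the order of CHLI1, CHLD and GUN4 differed between the repeats. Against all genes tested, CHLH stood at percentile 98.6 of mRNA level per kb after light and 78.4 in the dark, and CHLI2 at 88.3 and 52.2.

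Ratios between members within a library are free of the scaling of that library. CHLH per CHLD, per kb, was 4.02 and 3.30 in mRNA after light and 0.575 and 0.791 in the dark. In ribosome-protected mRNA the ratio was 6.36 and 8.83 after light and 0.605 and 0.851 in the dark. CHLD thus had more reads per kb than CHLH in all 4 dark libraries, and fewer in all 4 light libraries.

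CHLI1 plus CHLI2 per CHLD showed the same order, with 3.03 and 3.73 in mRNA after light against 0.628 and 1.47 in the dark. In ribosome-protected mRNA it was 4.42 and 4.99 after light and 0.978 and 2.64 in the dark. The dark ratio of repeat 2 was over 1 in both kinds of library and that of repeat 1 under 1, so the balance of CHLI to CHLD in the dark differed between the repeats.

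GUN4 per CHLH hardly differed in mRNA, at 0.758 and 0.731 after light and 0.734 and 0.694 in the dark. In ribosome-protected mRNA the same ratio was 0.595 and 0.537 after light, below the 1.12 and 1.29 of the dark libraries. CHLH per CHLI1 plus CHLI2 was 1.33 and 0.885 in mRNA after light and 0.916 and 0.537 in the dark, with overlap across the repeats. Within each repeat the light value was the higher. In ribosome-protected mRNA this ratio was 1.44 and 1.77 after light against 0.619 and 0.323 in the dark, without overlap.

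CHLI2 was the lesser CHLI copy throughout, at 0.223 and 0.215 of CHLI1 per kb in mRNA after light and 0.290 and 0.267 in the dark. In ribosome-protected mRNA the ratio was 0.212 and 0.246 after light and 0.294 and 0.380 in the dark. Each dark value was above each light value, in both kinds of library. These ratios are given as a description and were not tested.

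**Figure D4:**
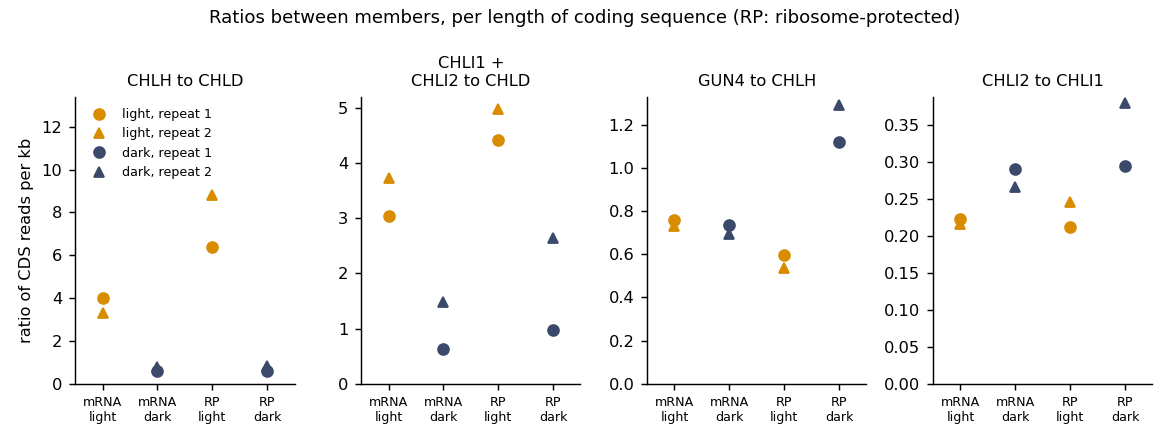
Ratios between members within each library, from CDS reads per kb, for mRNA and ribosome-protected (RP) libraries after light (orange) and in the dark (blue), with circles for repeat 1 and triangles for repeat 2. CHLH per CHLD is above 3 in every light library and below 1 in every dark one, while GUN4 per CHLH overlaps in mRNA and has 0.595 and 0.537 after light against 1.12 and 1.29 in the dark in ribosome-protected mRNA.

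Untranslated regions held few of the members' ribosome-protected reads. In CHLH the 5′ region took 0.135 and 0.465% of the gene's ribosome-protected reads after light and 0.469 and 1.82% in the dark, against 1.39 and 1.50% after light and 2.56 and 1.93% in the dark over all genes. The dark value of repeat 2 rests on 43 of the gene's reads (95% exact binomial interval 1.32 to 2.44%) and that of repeat 1 on 2 reads (0.0569 to 1.69%). Such intervals cover counting error only. In mRNA the 5′ share of CHLH was 1.12 and 1.27% after light and 1.08 and 1.23% in the dark. Over all genes it was 5.55 and 4.94% after light and 5.38 and 5.13% in the dark. The share of CHLH was thus below that of all genes in mRNA too. Its 5′ region has 145 bases, against 4146 coding bases. The 3′ region of CHLH took 0.0252 and 0.0481% of ribosome-protected reads after light and 0.469 and 0.254% in the dark, against 3.33 to 4.87% in mRNA. These ribosome-protected shares rest on 3 and 80 reads after light and on 2 and 6 reads in the dark. For the 2 reads the 95% exact binomial interval is 0.0569 to 1.69%. Over all genes the 3′ share of ribosome-protected reads was 0.613 and 0.247% after light and 1.63 and 0.566% in the dark. In mRNA it was 13.9 to 15.0%. For GUN4 the first light library had 0 ribosome-protected reads in the 5′ region, which allows a share of up to 0.221% (3 counts of its reads; 95% exact binomial upper bound 0.271%), and the second had 0.967%.

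In the TAIR10.1 sequence from 250 bases before to 50 after the annotated start, each member was searched on both strands for 3 short motifs. CACGTG, the core of the G-box, occurred in 0 of the 5, and in 7.68% of 27443 promoters of protein-coding genes. CCAATC occurred in CHLH, from base 40 after the start, in GUN4, and in 12.3% of all promoters. GATAAG occurred in CHLI1 and GUN4 and in 14.6% of all. In GUN4 the CCAATC match begins 13 bases before the start, and the 250 bases before the start, chr3:21949797-21950046 on the minus strand, are shown because no other member has a match upstream of its start. The capitals mark the match.
GUN4, upstream: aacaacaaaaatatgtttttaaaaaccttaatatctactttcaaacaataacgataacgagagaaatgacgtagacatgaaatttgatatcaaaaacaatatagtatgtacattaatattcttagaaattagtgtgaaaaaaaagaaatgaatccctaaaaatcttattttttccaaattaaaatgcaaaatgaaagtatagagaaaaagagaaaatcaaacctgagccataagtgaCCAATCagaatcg
The GUN4 model behind the counts, with 32 bases of 5′ and 164 of 3′ region, is shorter in total than the TAIR10.1 gene. Its start was not compared with the one used here. These matches are letters found in a window and were not tested for binding.

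The rest of the pathway was described by a list of 41 genes, of which 40 were tested. In mRNA 8 rose and 0 fell with light (edgeR, adjusted p under 0.05), with a median log2 change of 1.22, against 2 of 5 and 2.81 for the members. In ribosome-protected mRNA 11 rose and 0 fell, with a median of 1.73, against 3 of 5 and 2.98. With pairing by repeat 31 of the 40 rose and 1 fell in each kind of library. HEME1 (edgeR adjusted p = 3.82e-05), FC1 (0.00377) and GUN1 (8.68e-04) then rose in mRNA. HY2 then rose in ribosome-protected mRNA (edgeR adjusted p = 0.00240). Their values without pairing are given below.

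Of 12 genes tested that lead from glutamyl-tRNA to protoporphyrin, 1 rose in mRNA and 3 in ribosome-protected mRNA. HEMA1, the glutamyl-tRNA reductase that starts the pathway, rose by 2.35 ± 0.32 in mRNA and 3.79 ± 0.35 in ribosome-protected mRNA on the log2 scale (edgeR adjusted p = 0.0152 and 0.00430). HEME1, a uroporphyrinogen decarboxylase, rose by 2.84 ± 0.53 in ribosome-protected mRNA (adjusted p = 0.0281) and had 2.26 ± 0.51 in mRNA (adjusted p = 0.0628).

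Of 10 genes that act after magnesium insertion, 3 rose in each kind of library. CHLM, the methyltransferase that takes the chelatase product, rose by 3.19 ± 0.30 in ribosome-protected mRNA (edgeR adjusted p = 0.00430). CRD1, a subunit of the cyclase, rose by 3.24 ± 0.57 in mRNA (adjusted p = 0.0314), a change between those of CHLI1 and CHLH. CAO, which makes chlorophyll b, rose by 2.55 ± 0.42 in mRNA and 3.24 ± 0.44 in ribosome-protected mRNA (adjusted p = 0.0262 and 0.0111).

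On the haem and bilin branch, which draws on the same protoporphyrin as the chelatase, 1 of 4 genes rose in each kind of library. This was FC2, a ferrochelatase, with 2.36 ± 0.43 in mRNA and 2.60 ± 0.44 in ribosome-protected mRNA (edgeR adjusted p = 0.0347 and 0.0215). FC1, the other ferrochelatase, had 0.77 ± 0.19 in mRNA (adjusted p = 0.0829) and HY2, the phytochromobilin synthase, 1.57 ± 0.83 in ribosome-protected mRNA (adjusted p = 0.345).

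Of 5 regulators that act on the pathway's proteins, 1 rose in mRNA and 2 in ribosome-protected mRNA. BCM1, a thylakoid protein that in Arabidopsis binds GUN4 and stimulates the chelatase, rose by 2.48 ± 0.24 in mRNA and 2.67 ± 0.24 in ribosome-protected mRNA (edgeR adjusted p = 0.00696 and 0.00430). GUN1, a plastid protein of retrograde signalling, had 1.20 ± 0.27 in mRNA (adjusted p = 0.0587) and rose by 1.23 ± 0.27 in ribosome-protected mRNA (adjusted p = 0.0446). Of 9 transcription factors of greening, 2 rose in each kind of library. They were CGA1, a GATA factor (5.70 ± 0.46 and 5.51 ± 0.53), and HY5, a bZIP factor (1.70 ± 0.23 and 2.33 ± 0.24), with edgeR adjusted p from 0.00470 to 0.0150.

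**Figure D5:**
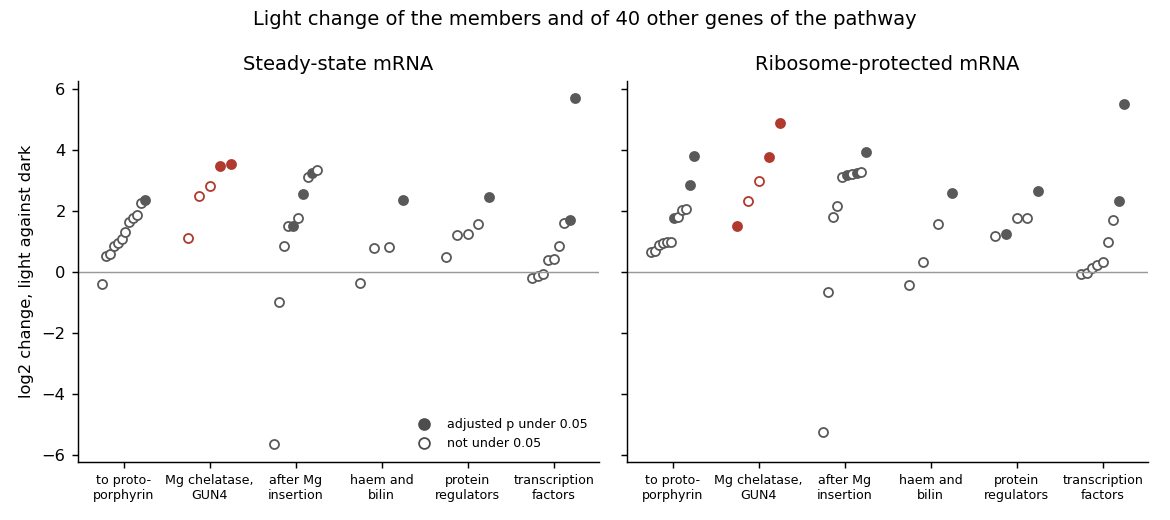
Log2 change, light against dark, of the 5 members (red) and of 40 other genes of the pathway (grey) by role, in steady-state mRNA (left) and ribosome-protected mRNA (right), with filled circles where the edgeR adjusted p is under 0.05. In mRNA CHLH and GUN4 (3.49 and 3.56) lie above every gene of the early steps, where HEMA1 has 2.35, while in ribosome-protected mRNA HEMA1 (3.79) lies between GUN4 (3.76) and CHLH (4.91).

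The genes whose pattern was most like that of each member were found by Pearson's r of log2 CPM over the 8 libraries, among 9911 other genes of at least median abundance. These values are a description, since the libraries share their conditions and repeats. For CHLH they were TIC55-II (r = 0.996), LHCA3 (0.995), an antenna protein of photosystem I, and HSP101 (0.995), a heat shock chaperone. For GUN4 they were PSAF, a subunit of photosystem I, AT1G14345 and PSBQ-2, a subunit of the oxygen-evolving complex, all at 0.997. For CHLI1 they were ENH1 (0.999), Tic62 (0.998) and AT5G52970 (0.998), and for CHLI2 PSBQA (0.998), PGK1 (0.997), a phosphoglycerate kinase, and PSAH-1 (0.997), a photosystem I subunit. For CHLD they were CYP71B28 (0.998), AT1G60000 (0.997) and AT2G21340 (0.996). Among the members, CHLI2 stood at place 47 for CHLI1 (r = 0.991) and GUN4 at place 31 for CHLH (r = 0.989), while CHLD and CHLI2 were the least alike pair (r = 0.911).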

How the data were processed

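Steady-state and ribosome-protected mRNA of Arabidopsis thaliana Col-0 seedlings were measured in 8 libraries, 2 per group, with groups and repeat numbers from the labels. The deposited tables hold, per the file headers, the authors' raw read counts per gene in the 5′ untranslated region, coding sequence and 3′ untranslated region, and the RPKM values that the authors computed from them. RPKM served only to check that reads, length and RPKM gave 1 constant per library, and 16 RPKM columns of untranslated regions were not used. The build was TAIR10, per the submitters' processing notes. Which aligner and counter were used, whether strand was, and what became of reads matching several places is not stated there or in the labels.

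CDS counts of 27415 genes were filtered with filterByExpr, scaled by TMM and fitted with edgeR 4.0.16 (R 4.3.3; glmQLFit, glmQLFTest) with 1 mean per group over all 8 libraries. Contrasts were light against dark in each kind of library, their interaction, and ribosome-protected against mRNA in each condition. Tests were two-sided, adjusted by Benjamini-Hochberg over 19823 genes, with a threshold of 0.05. Standard errors are the log2 change divided by the root of F. CPM use TMM-scaled totals, and logarithms of CPM a prior count of 2. The model was tested on simulated data. Depth ran from 4617343 to 40972194 CDS reads. The lowest member count was 47 reads, for CHLI2 in the dark ribosome-protected library of repeat 1. The repeat number was taken as a pairing because the deviations of same-numbered libraries correlated at 0.575 to 0.806 across genes in all 6 pairs of groups. It may stand for a batch, since each repeat has a table of its own.

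Gene models and sequences are RefSeq's for TAIR10.1. Coding lengths were equal in the tables and that reference for 25851 of 26709 nuclear loci (96.8%), and its 5′ starts can differ from the tables' models. CHLI1 and CHLI2 were aligned with Biopython 1.88. The members were named in every comparison. From each role group of the pathway list, the genes with the 2 smallest p in each light contrast were named. The members and lists were chosen with earlier results of these data known. Alternatives covered the replicate block, RLE factors, CDS totals without TMM, DESeq2 1.42.0, no filter, only the compared groups, whole gene models, organelle genes left out and each library left out.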

Additional observations from a re-analysis of the deposited data

How the results depend on the processing

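The sign of the light change in mRNA and in ribosome-protected mRNA held for all 5 members under all 18 alternatives, while the calls did not. In mRNA, 2 members were called, 5 with the replicate block (1 term, or 1 for each kind of library), 5 by DESeq2 and 0 with only the compared libraries, and 0 to 2 with 1 library left out. In ribosome-protected mRNA, 3 were called, 5 with either replicate block or DESeq2, and 0 to 2 with 1 library left out. CDS totals without TMM, or only the compared libraries, gave 2, without CHLD. The share of all genes that rose moved with the setting too. It was 3.34% in mRNA and 4.71% in ribosome-protected mRNA in the main design. With the replicate block as 1 term it was 19.4 and 17.3%. For the other settings that share is not given here. After light, 2 members were higher in ribosome-protected than in steady-state mRNA with the replicate block as 1 term, 0 with 1 term for each kind of library, and 0 in the main design. The block changed no other call of a member.

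Signs that turned all belong to differences that were not called. With 1 library left out, the interaction ranged from -0.91 to 1.22 for CHLI1, -1.15 to 1.19 for CHLI2 and -0.27 to 0.79 for GUN4. Ribosome-protected against mRNA in the dark then ranged from -0.72 to 0.23 for CHLH, -0.72 to 1.39 for CHLI1, -0.61 to 1.72 for CHLI2 and -0.056 to 0.98 for GUN4, and after light from -0.15 to 0.24 for CHLD. Without TMM the value was -0.024 for CHLI1 in the dark and -0.27 for CHLD after light. In that setting the median of all genes moved as well, to -0.28 in the dark and -0.29 after light. The cause of these turns was not tested. The interaction rests on all 8 libraries and has no value from the compared libraries only. Thinning the ribosome-protected libraries to 4617343 reads, chosen after seeing the data, changed no call. Counting whole gene models moved GUN4 per CHLH to 0.497 in ribosome-protected mRNA after light and 1.07 in the dark, with the same order.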
